A study of Mus musculus with 4 samples.

Results

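The expression of 6 genes whose signals were low in vehicle-treated mouse macrophages and higher after transforming growth factor beta 2 (TGFb2) was followed across the 4 arrays of the series. The genes are Sphk1, Gcnt2, Ctla2b, Bcat1, Spsb1 and Serpinf1, which are 6 of the 8251 genes named on the array and are read by 8 of its 12422 probe sets. They were chosen from the signals of this same comparison, so their differences are given as a description, without a test. Every probe set annotated to exactly 1 of these genes was included.

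The cells were peritoneal exudate cells of female BALB/c mice aged 6 to 8 weeks, drawn into the peritoneum by 2 ml of 3% thioglycolate, an irritant, and harvested 4 days later. Both groups were cultured overnight without serum, 1 with PBS and 1 with porcine TGFb2 (5 ng, with no volume in the labels), and the adherent cells, more than 95% positive for the macrophage marker F4/80, gave the RNA. Each group held 2 arrays, and the labels do not say whether these came from separate cultures or animals, so every spread given here may be technical. Values are MAS5 signals, linear intensities that Affymetrix software corrects for background, and each array had the same trimmed mean signal of 150.1. Log2 values correlated at 0.978 between the PBS arrays, 0.967 between the TGFb2 arrays and 0.953 to 0.966 across groups. The 14 macrophage markers on the array, among them Adgre1 (F4/80), Csf1r and Cd68, had mean signals above the level defined below, and their sum was 40817 and 39506 with PBS and 47583 and 47228 with TGFb2, with 0 past the adjusted threshold in limma and 8 higher at an unadjusted p under 0.05. Over all tested probe sets 11.7% had an unadjusted p under 0.05 in either direction. In RNA of whole cultures, a change in RNA per cell and a change in the number of cells that hold a transcript cannot be told apart.

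TGF-beta ligands bind a receptor pair, Tgfbr2 and Tgfbr1, that phosphorylates Smad2 and Smad3. These enter the nucleus with Smad4 and act on promoters and enhancers, often beside AP-1 factors. In macrophages the cytokine is known for dampening inflammatory responses and for inducing matrix and wound-repair genes. The 6 genes described here have no single pathway in common: they encode a lipid kinase, a glycosyltransferase, a protease inhibitor, an aminotransferase, a ubiquitin ligase adaptor and a secreted serpin.

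The deposited signals come without detection calls, so nearness to background was judged in 3 ways. The first was a level, the 40th percentile of the mean signal over the 4 arrays (25.1), which was also the filter for testing. The second was a reference of 115 probe sets of 84 genes of liver, pancreas, pituitary, eye, muscle, germ cells, brain and other tissues, which macrophages are not expected to hold. Their median signal was 8.1 to 14.2 on the 4 arrays, and their 90th percentile was 57.3 and 62.4 with PBS and 72.3 and 48.7 with TGFb2. Of the 84 genes, 32 passed the filter for testing, so the reference may hold some true or cross-reacting signal, which was not tested. The third was the 15 control probe sets for bacterial genes that read 0.5 to 22.9 on these arrays. Probe sets differ in how strongly they bind their target, so these comparisons place a signal within the range of background and do not rank the genes.

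Sphk1, sphingosine kinase 1, phosphorylates sphingosine to sphingosine 1-phosphate, a lipid that signals through its own family of surface receptors. Its only probe set gave signals of 4.0 and 9.8 on PBS replicates 1 and 2, and 64.2 and 66.7 on TGFb2 replicates 1 and 2. Both PBS values lay within the range of the bacterial controls, the TGFb2 arrays nearly matched each other, and the groups did not overlap. The lower TGFb2 signal was 6.55 times the higher PBS signal. The difference in log2(signal + 15) was 1.89 ± 0.29 (moderated SE from limma, n = 2 arrays per group, as for all differences below). This SE draws on the variance of other probe sets too, so it does not give the spread between replicates of a single probe set. Among the reference probe sets the PBS signals stood above 27.8% and 51.3% of them, and the TGFb2 signals above 87.8% and 91.3%. The TGFb2 signal of Sphk1 was thus close to the 90th percentile of transcripts that these cells are not expected to hold, above it on TGFb2 replicate 2 and below it on replicate 1.

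Promoter sequences were read for all 6 genes from the RefSeq promoter table of the GRCm38.p6 assembly, which gives 300 bases per annotated start, 250 before it and 50 from it on. They were searched on both strands for GTCTAGAC, the palindromic Smad site, CAGACA, a form of the shorter Smad-binding element, GGCGCC, a GC-rich Smad site, TGACTCA, the AP-1 site, and TATAAA, the TATA box. In the sequences below, matches are in capitals and the rest is in lower case, 5′ to 3′ on the gene's strand. The table holds 5 starts for Sphk1, and the 2 shown are those with a TATA box and, at a separate start, with an AP-1 match. In the first, TATAAA begins 31 bases before the start, where a TATA box usually lies. In the second, TGACTCA is present on the opposite strand and begins 50 bases before the start.
Sphk1 start 1, GRCm38.p6, chr11:116530850-116531149, plus strand: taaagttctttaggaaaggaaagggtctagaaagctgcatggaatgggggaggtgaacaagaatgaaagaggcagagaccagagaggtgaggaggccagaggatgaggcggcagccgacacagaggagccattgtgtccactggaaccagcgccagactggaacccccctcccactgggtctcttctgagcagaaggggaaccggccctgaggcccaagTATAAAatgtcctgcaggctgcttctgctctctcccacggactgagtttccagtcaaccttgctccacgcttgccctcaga
Sphk1 start 2, GRCm38.p6, chr11:116531587-116531886, plus strand: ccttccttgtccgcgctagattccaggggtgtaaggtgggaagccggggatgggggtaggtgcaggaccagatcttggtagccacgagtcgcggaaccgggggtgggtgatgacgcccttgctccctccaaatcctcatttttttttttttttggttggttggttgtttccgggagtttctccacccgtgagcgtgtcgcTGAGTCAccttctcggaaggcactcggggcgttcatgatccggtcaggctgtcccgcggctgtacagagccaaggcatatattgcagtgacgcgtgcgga

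Gcnt2 encodes a glycosyltransferase that adds branches to poly-N-acetyllactosamine chains, the reaction that forms the I blood group antigen. Its probe set read 7.1 and 8.3 with PBS and 77.1 and 58.2 with TGFb2. The PBS arrays agreed closely, and TGFb2 replicate 1 was the higher of the treated pair. The lowest TGFb2 signal was 7.01 times the highest PBS signal and the log2 difference was 1.86 ± 0.28. With PBS the signals stood above 42.6% and 47.8% of the reference probe sets, and with TGFb2 above 91.3% on each array. None of the 5 motifs was found in the promoter windows of the 3 annotated Gcnt2 starts.

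Ctla2b, first cloned from activated T cells and also known from mast cells, encodes a small protein that resembles the propeptide of cathepsins and belongs to the inhibitors of cysteine proteases. Its own probe set gave 12.8 and 14.4 with PBS and 112.4 and 71.2 with TGFb2. Both treated arrays were above both controls, with TGFb2 replicate 1 well above replicate 2, and the log2 difference was 1.87 ± 0.28. A further probe set, with the suffix _s_at for probes shared between genes, is annotated to Ctla2b and its relative Ctla2a together and is assigned to neither. It read 18.0 and 23.2 with PBS and 117.8 and 74.7 with TGFb2, a pattern over the arrays close to that of the Ctla2b probe set. The probe set annotated to Ctla2a alone read 8.1 and 0.2 with PBS and 0.7 and 0.6 with TGFb2, all under the level. Its suffix, _r_at, marks a set designed under relaxed rules, so these low readings do not say that Ctla2a was absent, and cross-reaction between both genes cannot be told apart from expression of either.

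The promoters of Ctla2b and Ctla2a are shown together because their transcripts share a probe set. Over 278 aligned bases they were identical at 255, or 91.7%. Both hold CAGACA on each strand and TGACTCA between those matches, 143 bases before the start in Ctla2b and 129 before the start in Ctla2a. Ctla2a also holds TATAAA, 190 bases before its first start, which the Ctla2b window lacks. Ctla2b was the only one of the 6 genes with both CAGACA and TGACTCA in a window.
Ctla2b, GRCm38.p6, chr13:60897398-60897697, minus strand: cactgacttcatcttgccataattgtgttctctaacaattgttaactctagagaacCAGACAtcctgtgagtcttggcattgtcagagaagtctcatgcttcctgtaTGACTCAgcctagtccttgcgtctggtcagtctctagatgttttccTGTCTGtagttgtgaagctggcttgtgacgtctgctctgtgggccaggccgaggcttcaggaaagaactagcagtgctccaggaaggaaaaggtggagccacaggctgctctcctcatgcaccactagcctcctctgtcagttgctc
Ctla2a start 1, GRCm38.p6, chr13:60936576-60936875, minus strand: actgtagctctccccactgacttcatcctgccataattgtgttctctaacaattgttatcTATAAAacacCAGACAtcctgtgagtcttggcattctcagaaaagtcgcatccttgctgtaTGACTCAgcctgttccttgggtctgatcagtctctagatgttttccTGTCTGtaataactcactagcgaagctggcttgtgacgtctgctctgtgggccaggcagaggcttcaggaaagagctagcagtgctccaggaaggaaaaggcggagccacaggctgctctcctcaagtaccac

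Bcat1 encodes the cytosolic branched-chain aminotransferase, which moves the amino group of leucine, isoleucine and valine to alpha-ketoglutarate. Its probe set read 13.6 and 11.4 with PBS and 62.2 and 60.8 with TGFb2. The spread within each group was small against the gap between groups, with group means of 12.5 ± 1.56 and 61.5 ± 0.99 (SD). The log2 difference was 1.48 ± 0.26. The TGFb2 signals stood above 87.8% and 91.3% of the reference probe sets, as those of Sphk1 did. Of the 2 annotated starts, the upstream one holds CAGACA on the opposite strand, beginning 168 bases before the start, and TATAAA 219 bases before it, farther upstream than a TATA box usually lies.
Bcat1 start 1, GRCm38.p6, chr6:145076108-145076407, minus strand: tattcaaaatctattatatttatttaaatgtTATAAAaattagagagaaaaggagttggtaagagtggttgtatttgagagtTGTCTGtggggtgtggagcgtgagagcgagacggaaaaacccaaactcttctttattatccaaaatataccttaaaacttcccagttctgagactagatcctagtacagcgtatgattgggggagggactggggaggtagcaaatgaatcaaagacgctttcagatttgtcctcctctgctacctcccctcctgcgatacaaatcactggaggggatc

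Spsb1 encodes an adaptor with a SPRY domain and a SOCS box that brings substrates to a cullin 5 ubiquitin ligase. Its known substrates include inducible nitric oxide synthase (Nos2) and the type II TGF-beta receptor, which makes it a feedback regulator of the pathway. Its probe sets both end in _f_at, a suffix for probes that can be shared with related sequences. The brighter one read 34.6 and 15.2 with PBS and 128.3 and 108.4 with TGFb2, and the other read 40.6 and 19.3 with PBS and 108.3 and 104.8 with TGFb2. PBS replicate 1 was more than 2 times PBS replicate 2 in each, and it lay above the level, so Spsb1 did not start from under it on both control arrays, with PBS means of 24.9 ± 13.7 and 29.95 ± 15.1 (SD). The log2 differences of 1.78 ± 0.28 and 1.48 ± 0.27 were close to each other, and the TGFb2 signals stood above 92.2% to 93.9% of the reference probe sets. The promoter of Spsb1 held none of the 5 motifs and, with 28 CpG dinucleotides in its 300 bases, was the richest in CpG of the 13 windows of the 6 genes. The median window of the whole table holds 7.

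Serpinf1 encodes pigment epithelium-derived factor, a secreted serpin that does not inhibit proteases, binds collagen and restrains blood vessel growth. Its first probe set, with the plain suffix _at, read 12.6 and 1.2 with PBS and 152.1 and 116.5 with TGFb2, the brightest treated signals among the 8 probe sets, with a log2 difference of 2.81 ± 0.32. The second, with the suffix _r_at, read 65.6 and 42.4 with PBS and 108.2 and 66.6 with TGFb2, so that PBS replicate 1 lay just under TGFb2 replicate 2. Its log2 difference was 0.56 ± 0.28, and its control signals were not near background by the level. Averaged over the 4 arrays the pair of probe sets had nearly the same mean signal, 70.6 and 70.7, so a rule that keeps the brighter probe set of a gene selects the _r_at set, the one with the smaller difference, by a very narrow margin.

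The Serpinf1 promoter is shown because the _at set of this gene had the largest difference of the 8 probe sets, while its _r_at set had the smallest. It holds CAGACA on the gene's strand, beginning 38 bases before the start, and no other match.
Serpinf1, GRCm38.p6, chr11:75422574-75422873, minus strand: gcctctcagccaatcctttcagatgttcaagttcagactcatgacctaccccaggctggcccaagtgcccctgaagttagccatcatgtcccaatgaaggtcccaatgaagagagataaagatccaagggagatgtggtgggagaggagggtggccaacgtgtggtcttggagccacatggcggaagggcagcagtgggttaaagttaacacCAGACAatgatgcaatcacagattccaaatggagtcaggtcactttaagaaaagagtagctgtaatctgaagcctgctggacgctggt

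Across the 13 windows of the 6 genes, CAGACA was found in 3, of 3 genes, and TGACTCA in 3, of 2 genes. In the whole table of 32851 windows 21.0% hold CAGACA, 5.20% hold TGACTCA and 13.6% hold TATAAA, and 11.9% and 0.213% hold GGCGCC and GTCTAGAC, of which the 6 genes held neither. The Sphk1 windows that hold TGACTCA overlap and share 1 match. These counts describe letters in short windows and are too few for a comparison.

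**Figure D1:**
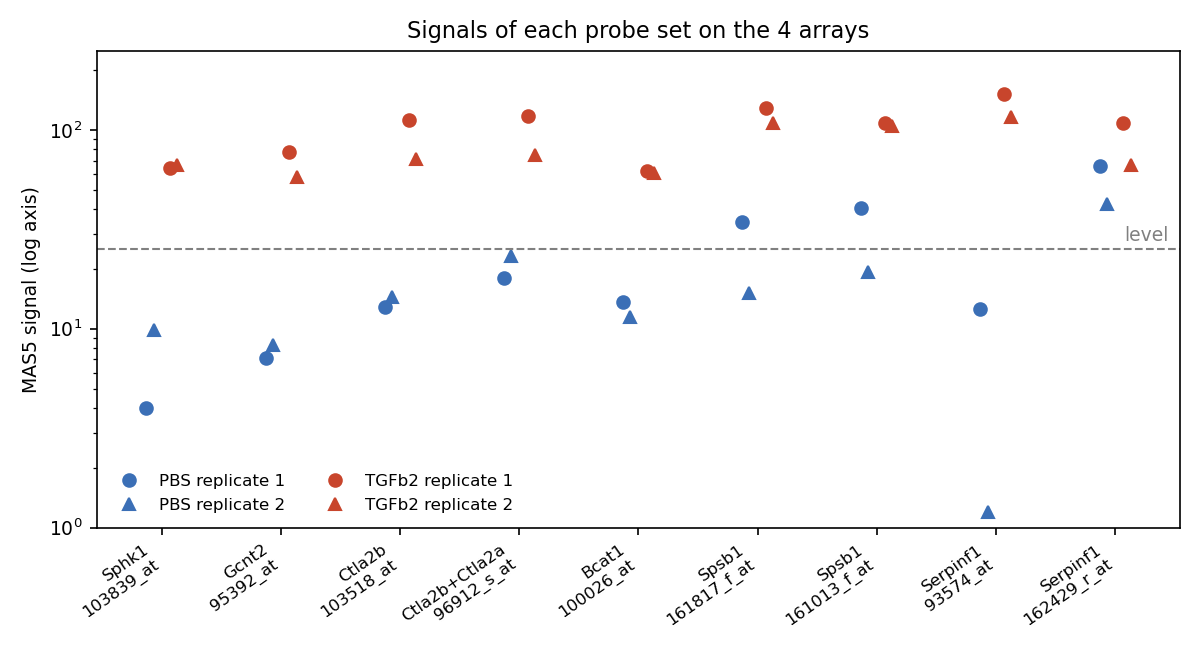
MAS5 signals (log axis) of the 8 probe sets of the 6 genes and of the probe set shared by Ctla2b and Ctla2a, with 1 point per array and the level of 25.1 as a dashed line. In every probe set both TGFb2 arrays are above both PBS arrays, and the PBS points of the _r_at set of Serpinf1 and of PBS replicate 1 for Spsb1 lie above the line.

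All 8 probe sets had both TGFb2 signals above both PBS signals, an order found in 21.4% of all 12422 probe sets and 21.1% of the 7454 tested, and one that the choice of these genes fixed. The signals of the 5 genes other than Spsb1 were under the level on both PBS arrays in at least 1 probe set and at least 2 times the level (50.2) on both TGFb2 arrays. This held for 16 probe sets in all, 0.129% of 12422, or 0.343% of the 4664 with both PBS signals under the level. The opposite order, from at least 2 times the level with PBS to under it with TGFb2, was found for 3 probe sets (0.0242%), of Myo10, Igfbp4 and Gsdme. This contrast of 16 against 3 depended on the arrays and the level: it was 27 against 26 without TGFb2 replicate 1, 31 against 15 without PBS replicate 2, and 20 against 12 with the level at the 30th percentile. The phrase "switched on from background" thus described Sphk1, Gcnt2, Ctla2b, Bcat1 and the _at probe set of Serpinf1 by this measure, and did not describe Spsb1 or the _r_at set of Serpinf1. By the reference it held less well. On TGFb2 replicate 1, Sphk1 (64.2) and Bcat1 (62.2) lay under the reference 90th percentile (72.3), so these genes did not leave that range on both treated arrays.

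The 16 probe sets represented 15 named genes and the probe set shared by Ctla2b and Ctla2a. The 5 named genes with the highest TGFb2 means, a rule for choosing names and no ranking of expression, were Serpinf1 (134.3 ± 25.2, SD), the leukocyte integrin chain Itgal (117 ± 31.6), the matrix glycoprotein tenascin C (Tnc, 114 ± 41.8), Ctla2b (91.8 ± 29.1) and the actin-associated protein Pdlim7 (74.6 ± 14.6). The other named genes, listed after their values were seen, were Col5a1, Lox, Mgp, Mfap5, Zap70, Nr2c2ap and Cox6a2. Just inside the limit on the TGFb2 signal stood Cox6a2 (50.4 and 58.8) and Nr2c2ap (50.8 and 59.7), and just outside it stood Prm3 (65.1 and 48.1) and Chpf (47.6 and 80.5), whose PBS signals were also under the level.

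**Figure D2:**
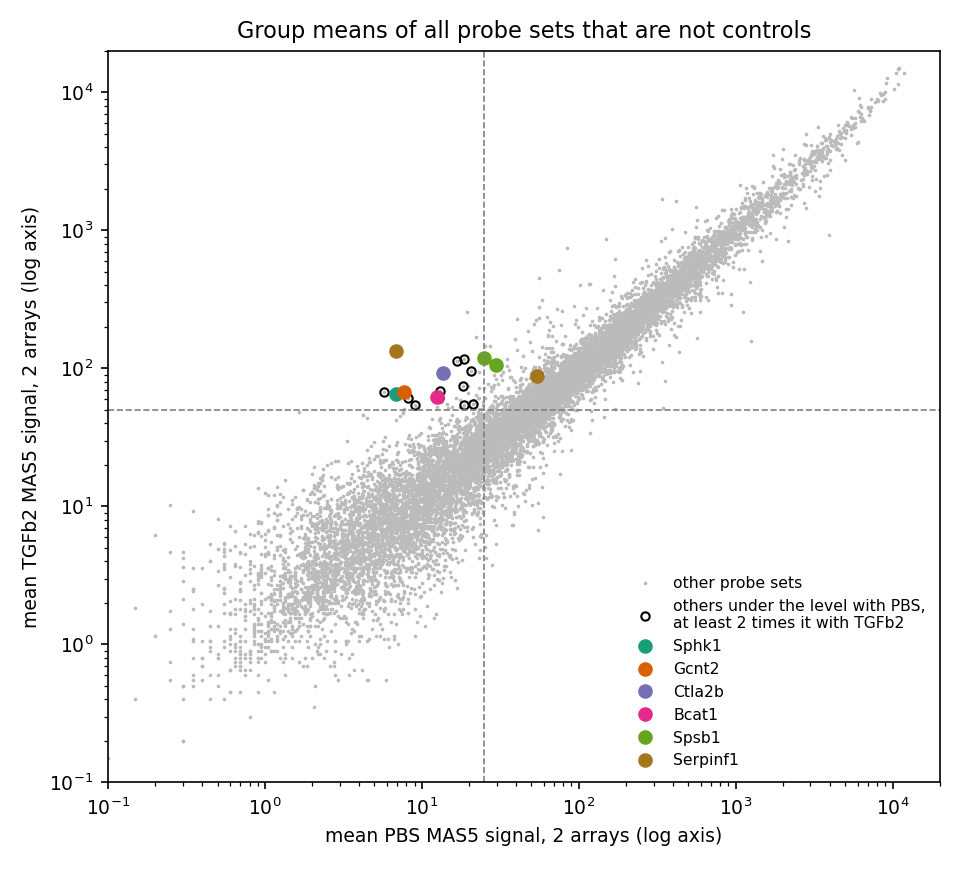
Mean PBS signal against mean TGFb2 signal (2 arrays each, log axes) of the 12422 probe sets that are not controls, with the 6 genes in colour, the other probe sets of the set of 16 as open circles, and dashed lines at 25.1 (PBS) and 50.2 (TGFb2). Spsb1 lies at the PBS line and the _r_at set of Serpinf1 inside the main cloud, while the other 5 coloured points lie to the left of the line.

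How far the differences could be read as folds depended on what was taken as background. When each PBS signal under the 90th percentile of the reference probe sets on its array was raised to that value, Serpinf1 (_at) was at least 2.24-fold higher with TGFb2, Spsb1 at least 1.98-fold and 1.78-fold, and Ctla2b at least 1.53-fold. The same bound was 1.37-fold for the _r_at set of Serpinf1, 1.13-fold for Gcnt2, 1.09-fold for Sphk1 and 1.03-fold for Bcat1. The planned ratio raised low TGFb2 signals as well, which gave 1.16 for Sphk1 and 1.11 for Bcat1 and is no lower bound there, because TGFb2 replicate 1 of each lay under its floor. Leaving the TGFb2 signals as measured was chosen after the data were seen and changed no value of the other 6 probe sets. A floor at the reference median, chosen after the data were seen, gave 12.3-fold for Serpinf1 (_at), 6.83-fold for Gcnt2, 6.75-fold for Ctla2b, 6.45-fold for Sphk1 and 4.92-fold for Bcat1. With that floor Spsb1 had 4.75-fold and 3.56-fold and the _r_at set of Serpinf1 1.62-fold. The order of the genes therefore changed with the floor: the brighter Spsb1 set was above Sphk1, Gcnt2 and Bcat1 with the higher floor and below them with the lower one.

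**Figure D3:**
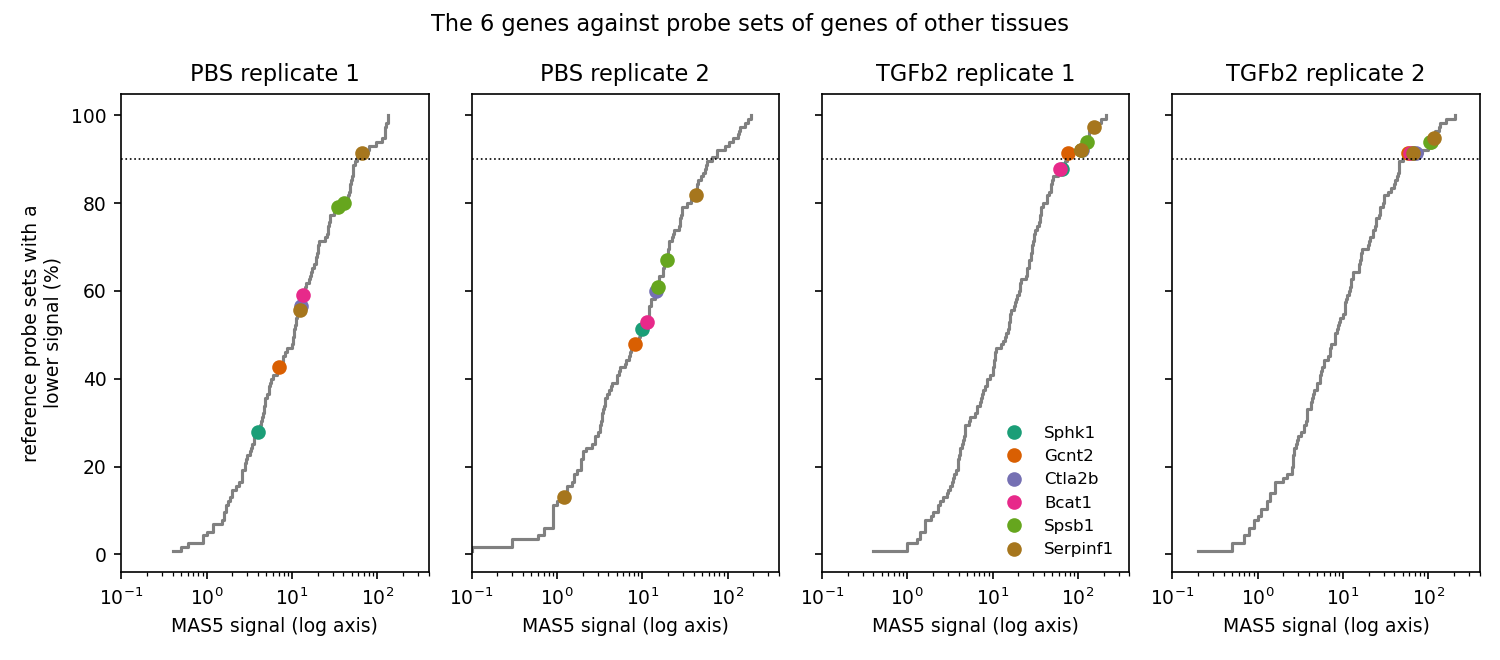
Cumulative share of the 115 reference probe sets (grey step line) against MAS5 signal (log axis) on each array, with the 8 probe sets of the 6 genes as coloured points and the 90th percentile as a dotted line. The points spread from 13.0% to 91.3% on the PBS arrays and gather between 87.8% and 97.4% on the TGFb2 arrays.

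The other genes of the 6 pathways were tested in the fit over all 7454 probe sets at or above the level, in which limma called 60 higher (0.805%) and 27 lower (0.362%) at an adjusted p of 0.05. Of 127 listed pathway genes on the array, the 6 left aside, 93 were tested, 1 rose and 0 fell. The gene that rose was Serpinh1. Each list below is described by its counts and its median, and its count at an unadjusted p under 0.05 is to be read against the 11.7% of all tested probe sets (871 of 7454).

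Sphingolipid and sphingosine 1-phosphate genes had 0 of 23 tested members past the threshold in limma, 5 at an unadjusted p under 0.05 (against 11.7% overall), and a median log2 difference of 0.05 against 0.00 over all tested probe sets. The partner kinase Sphk2, in the brighter of its probe sets, read 127 and 203 with PBS and 121 and 183 with TGFb2, which overlapped (limma adjusted p = 0.93). The receptor S1pr1 read 18.2 and 25.2 with PBS and 77.9 and 39.3 with TGFb2 (difference 0.96 ± 0.32, limma adjusted p = 0.29). It is 1 of the 5, but its PBS mean (21.7) was under the level, so it was tested only through its TGFb2 arrays. Its probe set has the suffix _f_at, as those of Spsb1 do. The phosphatase Sgpp1, which removes the phosphate from sphingosine 1-phosphate, read 89.1 and 80.3 with PBS and 40.5 and 44.0 with TGFb2 (difference -0.80 ± 0.20, limma adjusted p = 0.16).

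Glycan branching and capping enzymes had 0 of 22 tested members past the threshold in limma, 4 at an unadjusted p under 0.05 (against 11.7% overall), and a median difference of -0.08. Gcnt1, which starts core 2 branches on O-glycans, read 134 and 115 with PBS and 197 and 139 with TGFb2 (limma adjusted p = 0.56), without overlap. The sialyltransferase St3gal1, which caps core 1 glycans, read 102.8 and 75.8 with PBS and 34.2 and 51.4 with TGFb2 (difference -0.86 ± 0.25, limma adjusted p = 0.21). The fucosyltransferase Fut7, which completes selectin ligands, read 24.8 and 33.8 against 61.4 and 55.1 (difference 0.73 ± 0.24, limma adjusted p = 0.28).

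Of 10 other genes of the cysteine protease inhibitor list on the array, 5 were tested and 0 passed in limma, with 1 at an unadjusted p under 0.05 (against 11.7% overall) and a median difference of -0.02. Cystatin C (Cst3), a secreted cathepsin inhibitor, read 8154 and 7765 with PBS and 9445 and 8422 with TGFb2 (difference 0.16 ± 0.10, limma adjusted p = 0.59). The 1 gene at an unadjusted p under 0.05 was Serpinb6a, a serpin that is on both this list and the serpin list. It differed by -0.33 ± 0.12 (limma adjusted p = 0.37).

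Branched-chain amino acid genes had 0 of 19 tested members past the threshold in limma, 4 at an unadjusted p under 0.05 (against 11.7% overall), and a median difference of -0.02. Bcat2, the mitochondrial aminotransferase, read 124 and 155 with PBS and 87.8 and 180 with TGFb2, which overlapped (limma adjusted p = 0.93). The amino acid transporter Slc7a8 read 42.8 and 84.7 with PBS and 121 and 221 with TGFb2 (difference 1.24 ± 0.34, limma adjusted p = 0.18). Isovaleryl-CoA dehydrogenase (Ivd), of leucine breakdown, read 66.1 and 68.7 with PBS and 129.9 and 109.2 with TGFb2 (difference 0.70 ± 0.19, limma adjusted p = 0.17).

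SOCS-box adaptors and their partners had 0 of 15 tested members past the threshold in limma, 3 at an unadjusted p under 0.05 (against 11.7% overall), and a median difference of 0.05. Spsb2, the relative of Spsb1 that also targets Nos2, read 328 and 321 with PBS and 362 and 223 with TGFb2, which overlapped (limma adjusted p = 0.82). The type I TGF-beta receptor Tgfbr1 read 54.4 and 30.9 against 87.4 and 83.8 (difference 0.83 ± 0.25, limma adjusted p = 0.22). Rnf7, the RING subunit of the cullin 5 ligase, read 155 and 152 against 115 and 69.7 (difference -0.68 ± 0.24, limma adjusted p = 0.30).

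Of 20 other genes on the serpin list on the array, 10 were tested, and in limma 1 rose and 0 fell, with 3 at an unadjusted p under 0.05 (against 11.7% overall) and a median difference of -0.13. Serpinh1, the collagen chaperone, read 65.6 and 46.1 with PBS and 331 and 224 with TGFb2 (difference 2.04 ± 0.24, limma adjusted p = 0.019). Like Serpinf1 it is a serpin that does not act as a protease inhibitor. Serpinf2, the plasmin inhibitor next to Serpinf1 on chromosome 11, read 100.1 and 93.7 with PBS and 102.4 and 68.8 with TGFb2 in its tested probe set, which overlapped (limma adjusted p = 0.81).

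**Figure D4:**
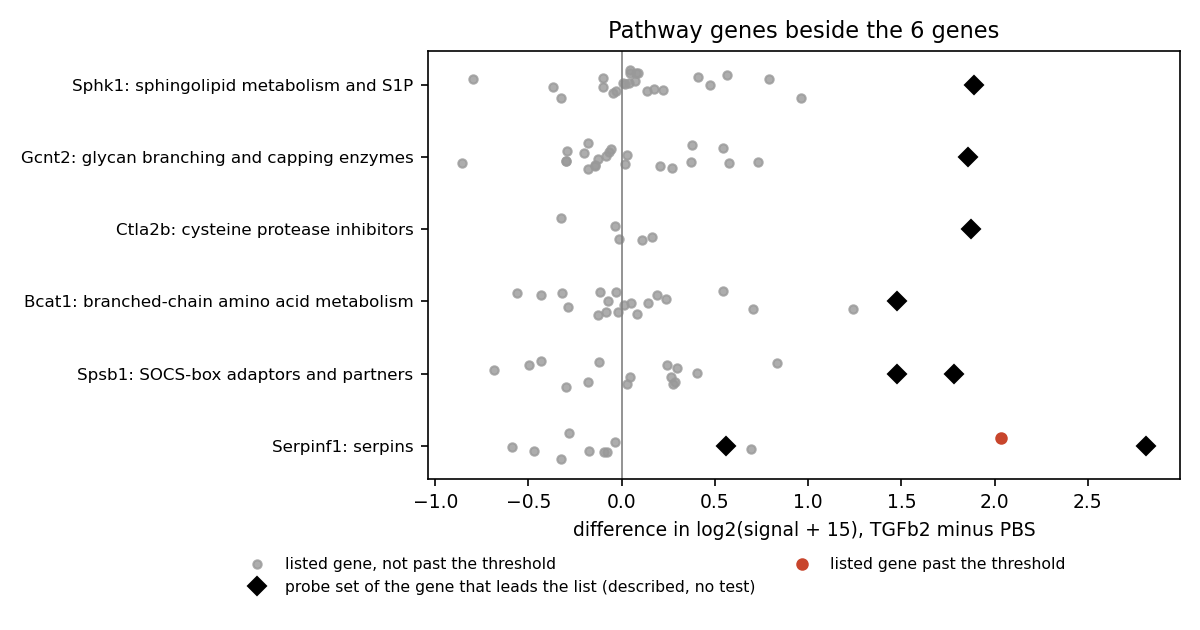
Difference in log2(signal + 15), TGFb2 minus PBS, of the tested genes on the 6 pathway lists (circles, brightest tested probe set) and of every probe set of the gene that leads each list (diamonds, no test). Serpinh1 is the 1 red circle past the threshold, at 2.04, and the grey circles lie between -0.86 and 1.24.

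Markers of other cells that could carry these transcripts were read beside them. Ctla2b is known from T cells and mast cells. The T cell genes that define the lineage, Cd3e, Cd3d and Cd3g, read 0.7 to 11.8 with PBS and 0.7 to 12.0 with TGFb2. Cd2 read 5.5 and 5.8 with PBS and 29.4 and 22.7 with TGFb2, higher without overlap. So was Cd3g (0.8 and 1.5, then 2.2 and 1.9), and this order was found in 21.4% of all probe sets. Lower without overlap were Cd247 (18.1 and 14.0, then 6.4 and 12.4) and Cd28 (20.0 and 12.0, then 9.0 and 3.7), an order found in 10 of the 115 reference probe sets. The summed signal of the 13 T cell markers on the array was 2273 and 1610 with PBS and 1814 and 1708 with TGFb2. Most of that sum was Il7r, and 10 of the 13 lay under the level. Of the 3 tested, 0 passed in limma and 0 had an unadjusted p under 0.05. A probe set of Zap70, a T cell kinase, was among the 16 described above (9.9 and 8.1 with PBS, 57.2 and 51.6 with TGFb2), while its brighter probe set overlapped between groups.

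Mast cell and basophil markers summed to 534 and 489 with PBS and 691 and 505 with TGFb2, and 0 of 5 tested passed in limma, with 2 at an unadjusted p under 0.05 (against 11.7% overall). These 2, Mcpt1 and Cpa3, had PBS means under the level (7.75 and 18.9). They entered the test only through their TGFb2 arrays, so their count is no evidence about this list. The mast cell protease Mcpt1 read 10.5 and 5.0 with PBS and 67.4 and 33.4 with TGFb2 (limma adjusted p = 0.14), and Cma1, the brightest of the list, overlapped. The proteases Tpsb2 (125 and 112 with PBS, 186 and 146 with TGFb2) and Cpa3 (24.7 and 13.1, then 50.1 and 34.0) did not overlap either and missed the threshold (limma adjusted p = 0.44 and 0.41). Of the receptors that define the lineage, Fcer1a read 6.9 and 1.0 with PBS and 12.5 and 7.2 with TGFb2, without overlap, and Kit read 9.3 and 2.8 against 4.4 and 12.0, which overlapped. Mcpt4 (1.4 and 0.9, then 3.2 and 3.2) was higher without overlap too, an order found in 21.4% of all probe sets. Other listed markers were lower with TGFb2 without overlap, as were 10 of the 115 reference probe sets. Gata2 read 60.9 and 66.1 with PBS and 39.9 and 49.9 with TGFb2 (limma adjusted p = 0.55), and Hdc read 7.2 and 3.1 against 2.8 and 1.8. The genes named here other than Cma1, Tpsb2 and Il7r were picked after their values were seen. The part of mast cell RNA in the Ctla2b signal was not tested.

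Serpinf1 is known from fibroblasts. Markers of fibroblasts and mesothelium summed to 3081 and 2280 with PBS and 2772 and 2354 with TGFb2, which overlapped. Of the 13 tested, limma called 2 higher and 1 lower, against 0.805% and 0.362% of all tested probe sets. At an unadjusted p under 0.05, 2 were higher and 2 lower, against 11.7% of all tested probe sets in either direction. Col1a1 (collagen I) rose from 144 and 142 to 374 and 370, and fibulin 2 (Fbln2) from 88.4 and 68.3 to 318 and 201, whereas decorin (Dcn) fell from 1131 and 747 to 319 and 257. The part of such cells in the Serpinf1 signal was not tested. Among neutrophil markers S100a8 rose, from 129 and 211 to 551 and 679 (limma adjusted p = 0.024), the 1 call among 4 tested. The sum of that list was 479 and 729 with PBS and 1164 and 1119 with TGFb2, and most of this difference was S100a8. Of the other listed genes, only Camp (74.8 and 63.4, then 94.3 and 82.4) and Prtn3 (11.1 and 7.9, then 20.5 and 13.8) did not overlap. Both were higher with TGFb2, an order found in 21.4% of all probe sets. S100a9 (3.4 and 6.1, then 28.9 and 5.3) and Mmp9 (137 and 338, then 358 and 249) overlapped. B cell, eosinophil and endothelial or platelet markers had 0 past the threshold of 7, 0 and 3 tested, and 0 at an unadjusted p under 0.05. None of the marker genes on these lists was at exactly 0 on an array.

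Likeness to other genes was measured over the 4 arrays as the Euclidean distance between log2(signal + 15) values centred on each gene's own mean, starting from the brightest probe set of each of the 6 genes. With 4 arrays many genes are near each other by this measure, and the neighbours are named as a description. Gcnt2 and Ctla2b were each other's nearest named gene, at a distance of 0.17, both with TGFb2 replicate 1 above replicate 2. The next for Gcnt2 was Lox, which crosslinks collagen, and for Ctla2b it was Id3, an inhibitor of helix-loop-helix factors. For Sphk1 the nearest were Apoc2 and the deubiquitinase Usp2 (0.16 and 0.21), and for Bcat1 Zap70 and Krt36 (0.08 and 0.11). The brighter Spsb1 probe set was nearest to AU020206 and Col5a1 (0.17 and 0.18). For Serpinf1, whose brighter probe set is the one with the smaller difference, they were Rgl2 and Ddx27 (0.07 and 0.12).

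The pseudocount of 15 set much of the size of these log2 differences. The PBS signals were under 15 in Sphk1, Gcnt2, Ctla2b, Bcat1 and the _at set of Serpinf1, and above it in both Spsb1 sets and the _r_at set of Serpinf1. With a pseudocount of 1 the difference of Serpinf1 (_at) was 4.62, of Sphk1 3.18 and of Gcnt2 2.97, and with a pseudocount of 60 they were 1.54, 0.91 and 0.91. The brighter Spsb1 set moved too, to 2.31 and 1.08. Leaving out 1 array at a time moved the same differences less, to between 2.43 and 3.19, 1.70 and 2.08, and 1.69 and 2.02. The second probe set of Serpinf1 behaved otherwise, with 0.26 to 0.86 when 1 array was left out and 0.36 to 0.68 over the pseudocounts of 60 and 1.

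**Figure D5:**
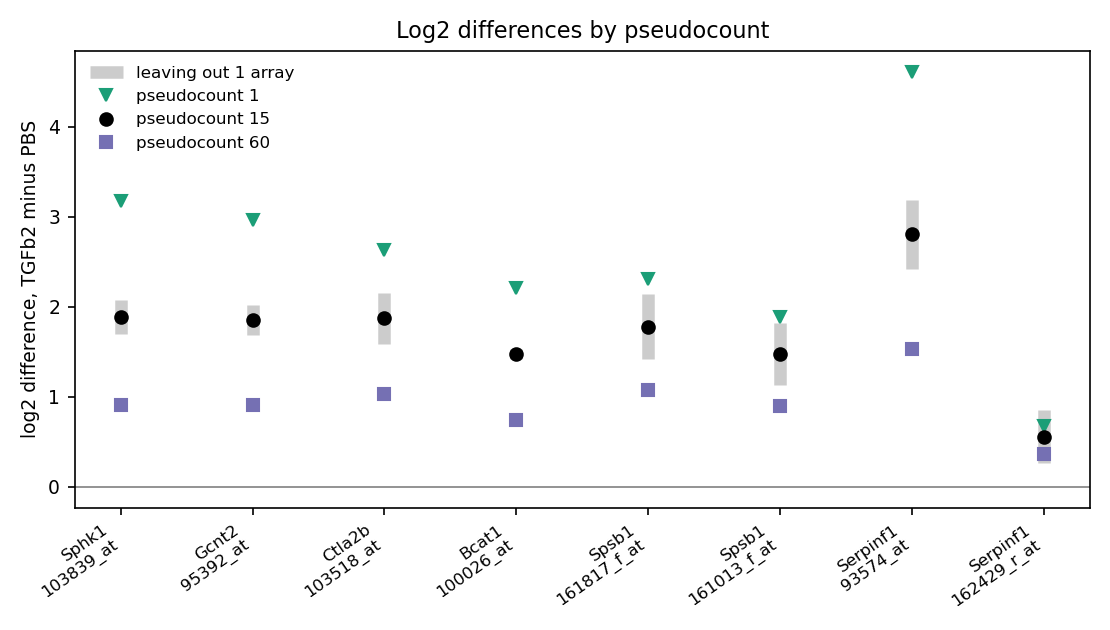
Log2 difference (TGFb2 minus PBS) of the 8 probe sets with pseudocounts of 1, 15 and 60, and as grey bars the range when 1 of the 4 arrays was left out. With a pseudocount of 1 the values reach 4.62 (Serpinf1, _at), and with 60 they lie between 0.36 and 1.54.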

How the data were processed

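Gene expression was measured on 4 Affymetrix arrays, 2 per group. The authors deposited 1 intensity per probe set, made with MAS5 per the submitters' processing notes (version not stated there). The intensities are on a linear scale and were used without further scaling, since trimmed means (2% off each end) were equal between arrays. The array has 12488 probe sets, of which 66 are controls. The platform annotation names 1 gene for 10833, several for 396 and none for 1193. Symbols were checked through gene IDs in the GRCm38.p6 gene table, where 10817 were found and 0 changed.

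Log2(signal + 15) values were compared by two-sided moderated tests from limma 3.58.1 under R 4.3.3 (lmFit and trended eBayes), with Benjamini-Hochberg adjustment over the 7454 probe sets at or above the 40th percentile of mean signal. Residual degrees of freedom were 2 and prior ones 5.6. The fit was tested on simulated data. The 6 genes passed this filter in all 8 probe sets, 6 of those through the TGFb2 arrays, since their PBS means were under it. Some listed genes, among them S1pr1, Mcpt1 and Cpa3, also entered the tests in this way. A gene on a list was represented by its brightest tested probe set. From each list up to 2 genes past the threshold per direction were named, or 2 of the largest differences where none passed, and the family partners Sphk2, Gcnt1, Ctla2a, Bcat2, Spsb2 and Serpinf2. Members and lists were chosen with earlier results of these data known. With 2 arrays a group, precision is low. Scanner files, detection calls and array dates were not used here.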

Additional observations from a re-analysis of the deposited data

How the results depend on the processing

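The number of probe sets called by limma, 87 in all, was 56 with a pseudocount of 1, 6 without the filter on dim probe sets, 13 without the intensity trend and 10 to 55 when 1 array was left out (55 and 49 without PBS replicates 1 and 2, 10 and 21 without TGFb2 replicates 1 and 2). With the replicate number as a block it was 325. The labels do not say that a number pairs the arrays. Over the tested probe sets, replicate 1 minus replicate 2 with PBS correlated at 0.14 with the same difference with TGFb2. This does not settle whether same-numbered arrays are paired, so they were treated as sharing only a number. Of the pathway genes, the 1 call (Serpinh1) became 0 without the filter, 0 without the trend, 2 with the replicate block, and 0 to 1 when 1 array was left out, with 0 without TGFb2 replicate 1. The 16 probe sets that went from under the level to at least 2 times it became 1, the _at set of Serpinf1, when 4 times the level was asked, and 27 to 47 when 1 array was left out, where 1 signal decided for its group (33 and 31 without PBS replicates 1 and 2, 27 and 47 without TGFb2 replicates 1 and 2). The opposite count, 3, became 12 and 15, and 26 and 21, in the same order. The log2 differences of the 8 probe sets kept their sign in all 72 values under 9 alternatives. With no overlap between groups in any of these probe sets, the pseudocounts, the left-out arrays and the block could not reverse a sign, so this is no support. Of the 72 values, the 14 that moved beyond the spread between replicates were those with pseudocounts of 1 and 60. Leaving out 1 of 2 arrays cannot move a difference beyond that spread, and the block leaves it unchanged. Those values could therefore not have moved and show no stability. Signals near background have unknown detection, which limits every fold given for the 6 genes.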

Other observations

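The protein-coding neighbours of the 6 genes in the GRCm38.p6 gene table were read to see whether adjoining genes differed too. Of 12 neighbours, 8 are named on the array and 7 were tested, and 0 passed in limma, with 0 at an unadjusted p under 0.05. Their differences lay between -0.37 (Lrmp, beside Bcat1) and 0.35 (Pak1ip1, beside Gcnt2).

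A further 13 probe sets were under the level on both PBS arrays and had their lower TGFb2 signal between 1.5 and 2 times the level, a limit chosen after the data were seen. Among them were Skil, a corepressor of Smad proteins (8.2 and 6.3 with PBS, 51.6 and 38.1 with TGFb2), Snai1, a transcriptional repressor of epithelial genes (3.6 and 10.2, then 45.2 and 38.6), and Olr1, a scavenger receptor for oxidised lipoprotein (7.7 and 1.3, then 44.6 and 43.1).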
